A study of Mus musculus with 4 samples.

Results

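The genes described here are 51 genes of the cell cycle machinery, picked by name from the 53379 genes with an FPKM value (fragments scaled to transcript length and to the reads mapped in a library) in group 3 innate lymphoid cells (ILC3s) of the mouse small intestine. By role they comprise 8 G1 cyclins and cyclin-dependent kinases (CDKs), 6 CDK inhibitors, 6 pocket proteins and E2F factors, 13 genes of S phase and 18 genes of G2 and mitosis. Total RNA was sequenced from 4 libraries, 2 Brg1-sufficient (the controls) and 2 Brg1-deficient. Brg1, encoded by Smarca4, is an ATPase of the SWI/SNF (BAF) chromatin remodeling complexes, and ILC3s are innate lymphocytes of the gut mucosa that secrete IL-22 and IL-17. The comparison asked which of these transcripts differed with the loss of Brg1 when both kinds of cell had grown in the same kind of host.

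The Brg1-sufficient ILC3s came from Rag1-/- Smarca4 f/f bone marrow carrying Thy1.2 alone and the Brg1-deficient ILC3s from Rag1-/- bone marrow with Smarca4 deleted in ILC3s and carrying Thy1.1 and Thy1.2. Both marrows were mixed in equal numbers and given to sublethally irradiated Rag2-/- Il2rg-/- mice, which lack T, B, natural killer and innate lymphoid cells of their own. The donors lacked Rag1 and therefore T and B cells. ILC3s were sorted from the lamina propria as Thy1.2-high CD45-low cells and split by Thy1.1, so no gate on a cell cycle marker was used. The labels give neither the age nor the sex of the mice and the libraries are described as biological duplicates. Whether libraries of one number came from the same recipients is not stated, and the p-values measure the spread between these 4 libraries only.

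A cell leaves rest for division when D-type cyclins activate CDK4 and CDK6, which phosphorylate the retinoblastoma family of pocket proteins and release E2F factors. E2F then drives cyclin E and the genes that license and copy DNA, and a later wave of B-type cyclins, kinases and spindle proteins carries the cell through mitosis. CDK inhibitors of the Cip/Kip and INK4 families oppose both steps, and pocket proteins keep E2F targets and many mitotic genes silent in resting cells. ILC3s of the adult gut are long-lived resident cells that renew locally.

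All 51 genes had a row in the table and 45 of them exceeded a mean of 1 FPKM in either group and were tested. The other 6, Ccnd1, Cdkn2a, E2f1, E2f2, Plk1 and Cenpf, are described by their values alone. By limma on log2(FPKM + 1), with p-values adjusted over 14739 genes by the Benjamini-Hochberg method, none of the 45 passed an adjusted p of 0.05 in either direction. Among all genes tested 0.224% passed as lower and 0.0814% as higher in Brg1-deficient cells. At an unadjusted p under 0.05, 0 of the 45 were lower, against 6.47% of all genes, and 3 were higher, namely Ccnd2, Rb1 and Rbl2, against 6.12% of all genes. These 3 make up 6.67% of the genes tested, a share near that of all genes. The median log2 fold change, always given here as Brg1-deficient minus Brg1-sufficient, was 0.05 for the 45 genes and 0.03 for all genes.

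Groups without overlap were counted as well. Both Brg1-deficient libraries lay above both Brg1-sufficient libraries for 13 of the 45 genes (28.9%), where this held for 24.4% of all genes tested. Both lay below for 1 gene, Cdk2 (2.22%), where this held for 20.2% of all genes tested. The share of higher genes was near that of all genes, and the share of lower genes was far under it. By the more permissive criteria that the study used for its gene lists (unadjusted p under 0.05, adjusted p under 0.4, a mean over 5 FPKM in at least 1 group and means that differ by over 0.5 on the log2 scale), 2 of the 45 were higher, Ccnd2 and Rb1, and 0 were lower. These criteria kept 3.8% of all genes as higher and 4.37% as lower. Because the RNA is from bulk cells, fewer cells in a phase of the cycle and less of its RNA per cell cannot be told apart.

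**Figure D1:**
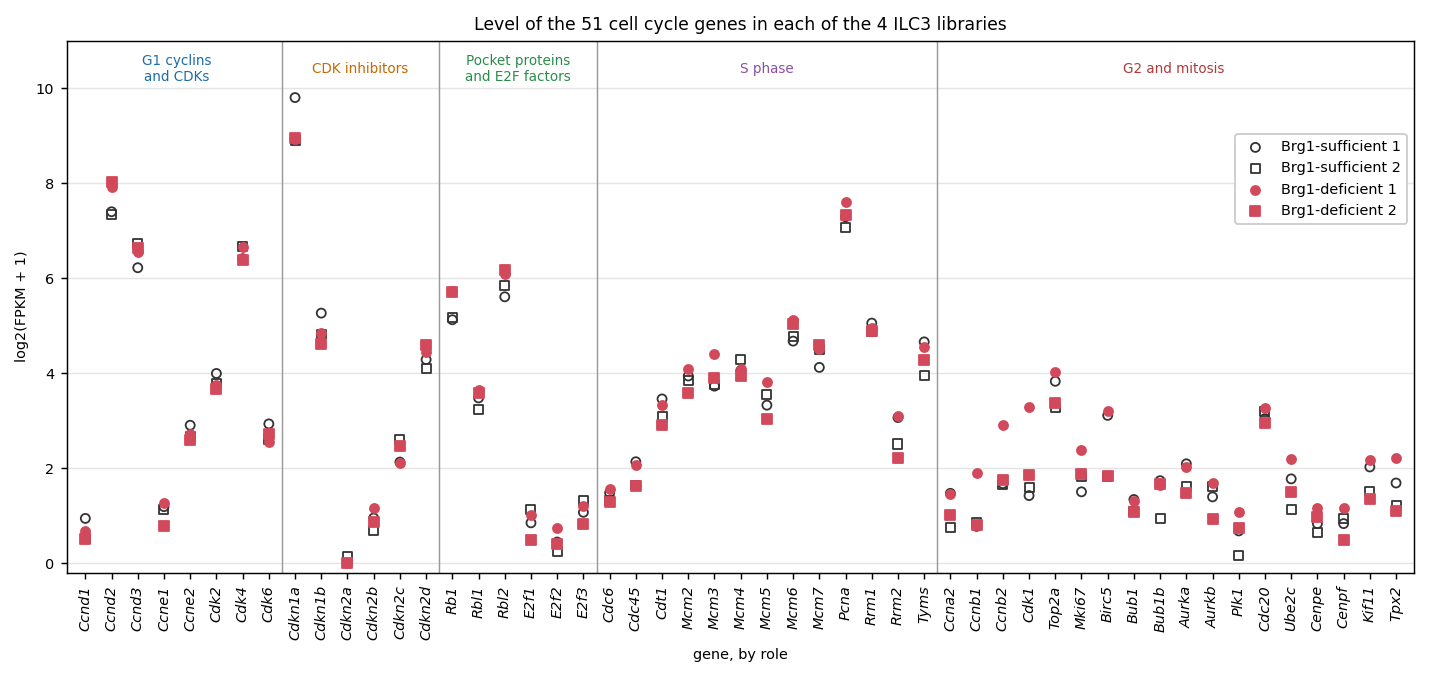
Level of each of the 51 genes as log2(FPKM + 1) on the vertical axis, with genes along the horizontal axis by role. Open symbols are Brg1-sufficient and filled symbols Brg1-deficient libraries, circles being library 1 and squares library 2 of a group. Cdkn1a, Ccnd2 and Pcna lie highest, and most G2 and mitosis genes lie under 4 on this scale.

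Cdkn1a was the most abundant member, with a mean FPKM at the 99.1 percentile of the genes tested, followed by Ccnd2 at 97.0, Pcna at 95.9, Ccnd3 at 92.6 and Cdk4 at 92.6. Mki67 was at 30.3 and Cdk1 at 35.9. Levels differed widely within a role, from 11.4 for Ccne1 to 97.0 for Ccnd2 among the G1 genes, and from 5.08 for Cenpe to 58.8 for Top2a among the G2 and mitosis genes tested.

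Promoters are shown for pocket protein and E2F genes, the role with the largest share of groups apart (3 of only 4 genes tested), and for Cdk1, the gene with the highest fold change. RefSeq promoters of the build GRCm38.p6, which run from 250 bases before to 50 bases after a transcript start, were held for 43 of the 51 genes. Ccnd1, Ccnd2, Ccne2, Ccna2, Rb1, Mcm4, Aurkb and Tpx2 had no entry. Capitals mark E2F letters (TTTGGCGC, TTTCCCGC or TTTCGCGC) and CHR letters (TTTGAA or TTCGAA, after the cell cycle genes homology region that the DREAM and MuvB complexes read), searched on both strands. E2F and CHR letters cannot overlap each other, and TTCGAA reads the same on both strands. The windows are chr8:91069807-91070106 on the plus strand for Rbl2, chr2:157204485-157204784 on the minus strand for Rbl1, chr13:29986014-29986313 on the minus strand for the first of 2 promoters of E2f3, and chr10:69352863-69353162 on the minus strand for Cdk1, which was added after its values were seen.
Rbl2: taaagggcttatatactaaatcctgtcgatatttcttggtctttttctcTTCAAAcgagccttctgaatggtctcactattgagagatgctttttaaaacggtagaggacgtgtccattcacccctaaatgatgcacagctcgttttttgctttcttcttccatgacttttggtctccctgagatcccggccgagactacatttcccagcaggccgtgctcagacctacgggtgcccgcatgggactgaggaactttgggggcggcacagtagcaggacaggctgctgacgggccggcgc
Rbl1: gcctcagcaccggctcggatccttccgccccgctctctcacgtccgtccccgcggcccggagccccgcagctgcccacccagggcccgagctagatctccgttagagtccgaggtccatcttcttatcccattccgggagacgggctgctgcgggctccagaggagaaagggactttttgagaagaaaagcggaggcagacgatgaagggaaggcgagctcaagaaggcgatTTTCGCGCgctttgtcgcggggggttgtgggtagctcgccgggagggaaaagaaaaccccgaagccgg
E2f3: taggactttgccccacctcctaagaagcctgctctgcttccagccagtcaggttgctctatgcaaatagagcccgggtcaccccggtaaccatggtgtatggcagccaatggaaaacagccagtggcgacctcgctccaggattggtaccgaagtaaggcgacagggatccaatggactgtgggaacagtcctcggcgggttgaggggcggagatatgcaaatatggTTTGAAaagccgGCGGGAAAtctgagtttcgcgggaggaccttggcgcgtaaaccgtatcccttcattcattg
Cdk1: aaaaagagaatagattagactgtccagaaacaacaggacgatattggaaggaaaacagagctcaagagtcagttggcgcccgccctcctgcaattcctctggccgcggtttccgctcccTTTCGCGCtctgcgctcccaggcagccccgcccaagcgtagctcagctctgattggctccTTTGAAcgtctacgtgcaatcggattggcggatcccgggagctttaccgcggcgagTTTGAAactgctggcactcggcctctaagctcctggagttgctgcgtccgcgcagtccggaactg

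In Rbl1 the E2F letters began 18 bases before the transcript start. E2f3 held CHR letters 23 bases and E2F letters 11 bases before its start. Cdk1 held E2F letters 131 bases before its start and CHR letters at 71 and 15 bases before it, whereas Rbl2 held only CHR letters, 201 bases before its start. E2F letters occurred in the promoters of 12 of the 43 genes (27.9%) and of 2.12% of all 27025 genes with an entry, or 1.84% of all 32851 promoters. CHR letters occurred for 19 of the 43 genes (44.2%) and for 21.7% of all genes with an entry, or 19.2% of all promoters. The shares differed between roles. Of the 5 pocket protein and E2F genes with an entry, 3 held E2F letters and 3 held CHR letters, E2f2 and E2f3 holding both. Of the S phase genes, 6 of 12 held E2F letters, namely Cdc6, Cdt1, Mcm3, Mcm5, Mcm6 and Mcm7, and 3 of 12 held CHR letters. Of the G2 and mitosis genes 12 of 15 (80.0%) held CHR letters, among them Mki67, Top2a, Ccnb2 and Plk1, and only Cdk1 held E2F letters. These are matches of letters in a window and not measured binding.

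Among the G1 cyclins and CDKs, Ccnd2 was the one gene whose groups stood apart by an unadjusted p under 0.05. Ccnd2 encodes cyclin D2, a D-type cyclin that partners CDK4 and CDK6, and lies at chr6:127125162-127152193 on the minus strand (ENSMUSG00000000184). The span overlaps the antisense genes Gm43126 and 9330179D12Rik on the opposite strand. The FPKM of Ccnd2 was 168 and 161 in the control libraries and 242 and 261 in the Brg1-deficient libraries. Both Brg1-deficient libraries were above both controls, and the gap between the groups was larger than the spread within either group. The means were 164 ± 4.86 and 252 ± 13.6 (SD, n = 2 each), a ratio of 1.53. The log2 fold change was 0.61 with a standard error of 0.13 (95% confidence interval 0.28 to 0.94). By limma the unadjusted p was 0.00437 and the Benjamini-Hochberg adjusted p was 0.153, and over the alternatives it ranged from 0.106 to 0.656.

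The other D-type cyclins did not share this pattern. Ccnd3, cyclin D3, had 73.5 and 105 FPKM in the control libraries and 93.1 and 97.8 in the Brg1-deficient libraries. Both of the latter lay between the control values, and the log2 fold change was 0.12 ± 0.20 (SE). Ccnd1, cyclin D1, was scarce at 0.92, 0.43, 0.6 and 0.43 FPKM in the same order of libraries. Cyclin D2 was therefore the most abundant D-type transcript in every library, with a ratio of Ccnd2 to Ccnd3 FPKM of 2.28 and 1.53 in the Brg1-sufficient and 2.60 and 2.67 in the Brg1-deficient libraries.

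Cdk4 and Cdk6, which encode the kinases that these cyclins bind, varied less between the groups than within them. Cdk4 had 84.0 and 101 FPKM in the control libraries and 100 and 81.9 in the Brg1-deficient libraries, with a log2 fold change of -0.03 (95% confidence interval -0.46 to 0.41). Cdk6 was 12.7 to 20.6 times less abundant than Cdk4 in the 4 libraries. Cdk2, the partner of cyclins E and A, had 14.9 and 12.8 FPKM in the Brg1-sufficient and 12.5 and 11.8 in the Brg1-deficient libraries. Cdk2 was the sole tested gene of the 45 with both Brg1-deficient libraries below both controls, by a log2 fold change of -0.17 ± 0.17 (SE, limma adjusted p = 0.708). The cyclin E genes Ccne1 and Ccne2 and Cdk6 had overlapping groups and log2 fold changes between -0.14 and -0.13. The median over the 7 G1 genes tested was -0.13.

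**Figure D2:**
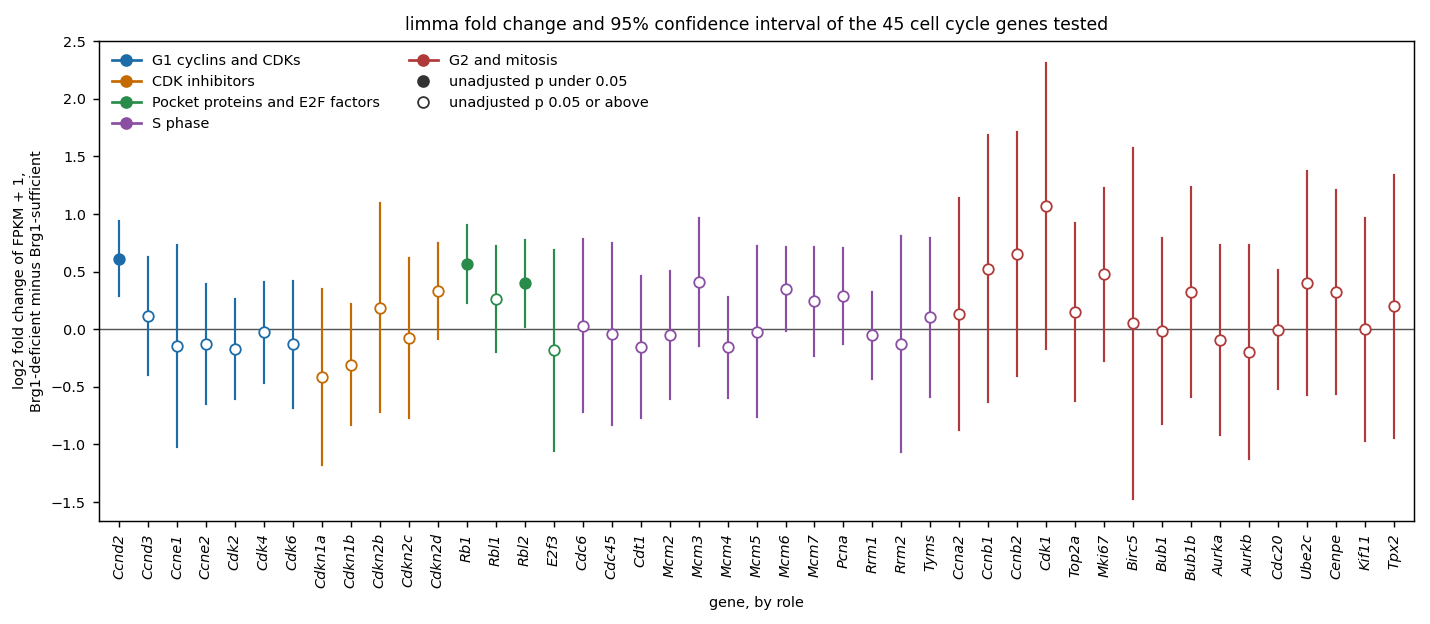
Log2 fold change of FPKM + 1, Brg1-deficient minus Brg1-sufficient, for the 45 genes tested, by role, with the 95% confidence interval of the limma fit as vertical lines. Filled points have an unadjusted p under 0.05, namely Ccnd2 (0.61), Rb1 (0.57) and Rbl2 (0.40), and the intervals of all other genes tested span 0.

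The CDK inhibitors, which hold CDK activity down, were split in direction, with 3 of the 5 tested on the lower and 2 on the higher side. Cdkn1a, which encodes p21 and is a target of p53, had 892 and 474 FPKM in the control libraries and 484 and 491 in the Brg1-deficient libraries. Brg1-sufficient library 1 was the high value, and the other 3 libraries lay together. The log2 fold change of -0.42 (95% confidence interval -1.18 to 0.35) therefore turned on 1 library. It was 0.04 without Brg1-sufficient library 1 and -0.87 without Brg1-sufficient library 2, where the limma adjusted p was 0.219.

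Cdkn1b, which encodes p27 and is associated with quiescence, had 37.4 and 27.1 FPKM in the control libraries and 27.7 and 23.5 in the Brg1-deficient libraries. The groups overlapped, and the log2 fold change was -0.31 ± 0.21 (SE). It kept its sign in all 9 alternatives, between -0.54 and -0.08. Cdkn2d, the INK4 inhibitor p19, had 18.5 and 16.1 FPKM in the Brg1-sufficient and 20.8 and 23.1 in the Brg1-deficient libraries. It was the one inhibitor whose groups did not overlap, at a log2 fold change of 0.33 ± 0.17 (SE, limma adjusted p = 0.498). The remaining INK4 genes were scarce. Cdkn2b and Cdkn2c ranged from 0.62 to 5.06 FPKM with overlapping groups, and Cdkn2a, which encodes p16 and p19Arf, was listed at 0 in 3 libraries and at 0.1 in Brg1-sufficient library 2.

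Of the 4 pocket protein and E2F genes tested, the 3 pocket protein genes were higher in both Brg1-deficient libraries, where 24.4% of all genes were. The role holds too few genes to read more from this count. Rb1 encodes the retinoblastoma protein, the founding pocket protein, at chr14:73183673-73325822 on the minus strand (ENSMUSG00000022105). Rb1 had 33.9 and 34.9 FPKM in the control libraries and 51.8 and 51.2 in the Brg1-deficient libraries. The libraries of each group were nearly level, and the gap between the groups was many times the spread within them. The means were 34.4 ± 0.735 and 51.5 ± 0.417 (SD, n = 2 each), the latter at 149.5% of the former, and the log2 fold change was 0.57 ± 0.14 (SE, 95% confidence interval 0.23 to 0.91). The unadjusted limma p was 0.00734 and the Benjamini-Hochberg adjusted p 0.187, and over the alternatives it ranged from 0.14 to 0.689. The span of Rb1 overlaps Lpar6 and Rcbtb2 on the opposite strand, and reads of overlapping genes cannot be told apart where the strand was not used.

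Rbl2 encodes p130, the pocket protein of the DREAM complex that silences cell cycle genes in resting cells, at chr8:91070057-91123844 on the plus strand (ENSMUSG00000031666). It had 47.8 and 56.3 FPKM in the control libraries and 66.8 and 70.6 in the Brg1-deficient libraries. Both Brg1-deficient libraries were above both controls. The log2 fold change was 0.40 ± 0.15 (SE), with an unadjusted limma p of 0.0422 and a Benjamini-Hochberg adjusted p of 0.374. The unadjusted p was above 0.05 without Brg1-sufficient library 1 (0.0734), without Brg1-deficient library 1 (0.112) and without Brg1-deficient library 2 (0.163). Rbl2 overlaps Aktip on the opposite strand.

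Rbl1, which encodes the third pocket protein p107 and is itself an E2F target, had 10.2 and 8.37 FPKM in the control libraries and 11.5 and 11.1 in the Brg1-deficient libraries. The groups did not overlap, with a log2 fold change of 0.26 ± 0.18 (SE, limma adjusted p = 0.610). Rbl2 exceeded Rb1 by 1.29 to 1.61 times in the 4 libraries and both exceeded Rbl1. The activator E2F genes, which drive entry into S phase, were scarce. E2f3 had 1.1 and 1.5 FPKM in the Brg1-sufficient and 1.31 and 0.76 in the Brg1-deficient libraries, with a log2 fold change of -0.18 ± 0.35 (SE). E2f1 reached at most 1.19 FPKM and E2f2 at most 0.68 FPKM in any library. Each pocket protein gene thus exceeded E2f1, E2f2 and E2f3 in every library. This did not extend to all E2F genes. E2f4, from the further lists described below, had 9.17 and 10.1 FPKM in the control libraries, near the values of Rbl1. It had 8.0 and 7.93 in the Brg1-deficient libraries. E2f5, from the same lists, had 6.28 and 8.05 FPKM in the Brg1-sufficient and 5.04 and 7.26 in the Brg1-deficient libraries. The median log2 fold change over the 4 pocket protein and E2F genes tested was 0.33.

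**Figure D3:**
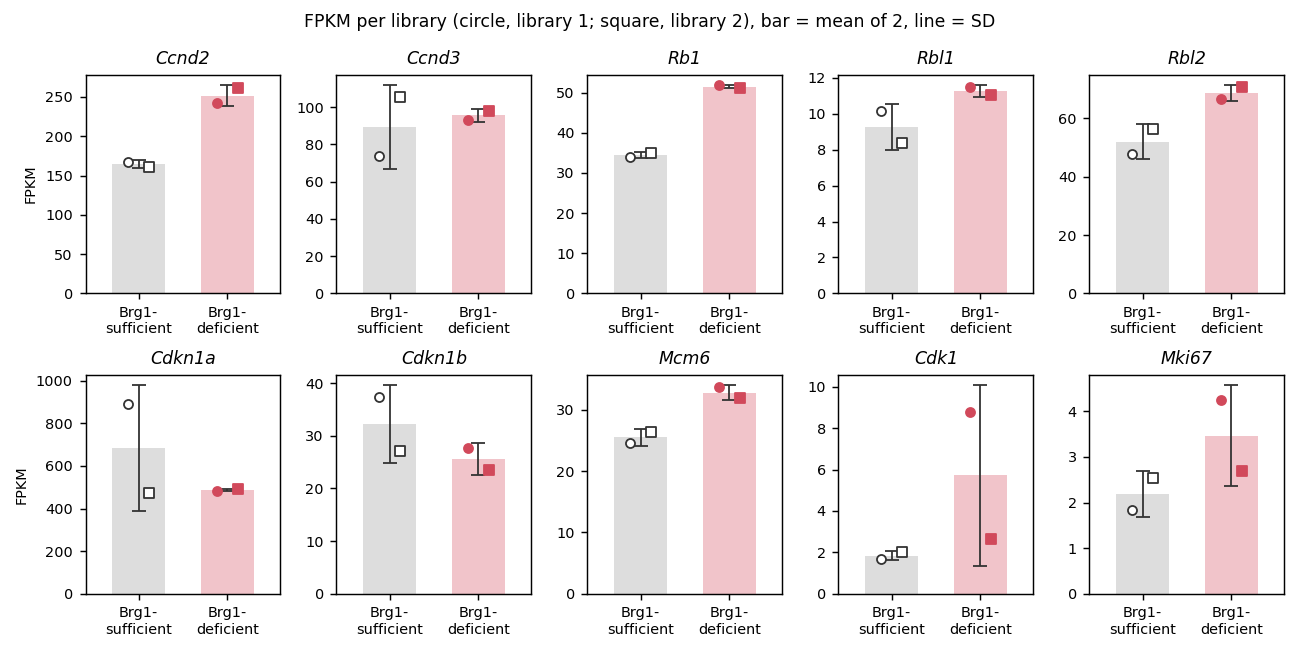
FPKM of 10 genes in each library on linear axes from 0. Bars are group means, lines are the SD of 2 libraries, circles are library 1 and squares library 2. Rb1 and Ccnd2 have narrow groups that lie apart, the high Cdkn1a mean rests on Brg1-sufficient library 1, and the high means of Cdk1 and Mki67 rest on Brg1-deficient library 1.

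In S phase, none of the 13 genes, all of them tested, had an unadjusted p under 0.05, and their median log2 fold change was -0.02. The groups did not overlap for 4 genes (30.8%), all higher in Brg1-deficient cells, which is near the 24.4% of all genes tested. Mcm6, a subunit of the MCM2-7 replicative helicase, had 24.5 and 26.4 FPKM in the control libraries and 33.6 and 31.9 in the Brg1-deficient libraries. The groups did not overlap, and the log2 fold change was 0.35 ± 0.15 (SE, limma adjusted p = 0.415). Mcm3 had 12.2 and 12.5 FPKM in the Brg1-sufficient and 20.3 and 13.9 in the Brg1-deficient libraries, with Brg1-deficient library 1 alone well above the rest (log2 fold change 0.41 ± 0.22, SE). Its range over the alternatives was 0.16 to 0.67.

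The helicase subunits, which act as 1 ring of 6 proteins, did not share a direction. Mcm3, Mcm6 and Mcm7 had positive and Mcm2, Mcm4 and Mcm5 negative log2 fold changes, and the 6 ranged from -0.16 to 0.41. Their summed FPKM was 92.1 and 103 in the Brg1-sufficient libraries and 121 and 101 in the Brg1-deficient libraries, so the sums of the groups overlapped.

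Pcna, the sliding clamp of DNA polymerase that also serves in DNA repair, was the most abundant S phase gene. It had 156 and 134 FPKM in the control libraries and 195 and 160 in the Brg1-deficient libraries. The lower Brg1-deficient value was only slightly above the higher control, and the log2 fold change was 0.29 ± 0.17 (SE, limma adjusted p = 0.547). Rrm1, the large subunit of ribonucleotide reductase, had 32.2 and 28.6 FPKM in the Brg1-sufficient and 29.9 and 28.6 in the Brg1-deficient libraries. Its groups overlapped, and the interval of its log2 fold change ran from -0.43 to 0.33. The licensing factors Cdc6 and Cdt1, the helicase activator Cdc45 and the nucleotide enzymes Rrm2 and Tyms all had overlapping groups, with log2 fold changes from -0.15 to 0.10. The S phase genes not given by library ranged from 1.43 to 24.3 FPKM.

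The G2 and mitosis genes were low in all 4 libraries and were measured with the widest error, at a median standard error of the log2 fold change of 0.38, against 0.17 to 0.28 in the other roles. Of the 16 tested, 0 had an unadjusted p under 0.05, 11 had a positive and 5 a negative log2 fold change, and the median was 0.17. Mki67, the transcript of the proliferation antigen Ki-67 that the study stained in ILC3s, had 1.83 and 2.54 FPKM in the control libraries and 4.25 and 2.69 in the Brg1-deficient libraries. The groups did not overlap, but Brg1-deficient library 2 was close to the higher control. The log2 fold change was 0.48 (95% confidence interval -0.28 to 1.23, limma with Benjamini-Hochberg adjusted p = 0.588). The interval therefore holds both no difference and a large increase. By flow cytometry, the study reported a higher percentage of Ki-67-positive cells among Brg1-deficient ILC3s of mixed chimeras. That is a count of cells by protein, unlike the bulk RNA level given here.

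Cdk1, the kinase that triggers mitosis, had the highest log2 fold change of the 45 genes. It had 1.68 and 2 FPKM in the control libraries and 8.8 and 2.63 in the Brg1-deficient libraries. Brg1-deficient library 1 stood far above the other 3. The log2 fold change was 1.07 (95% confidence interval -0.17 to 2.32, limma with Benjamini-Hochberg adjusted p = 0.462). It was 0.36 without Brg1-deficient library 1 and 1.79 without Brg1-deficient library 2.

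Ccnb2, which encodes a B-type cyclin that binds CDK1, had 2.19 and 2.17 FPKM in the Brg1-sufficient and 6.49 and 2.35 in the Brg1-deficient libraries. Its log2 fold change of 0.66 became 0.08 without Brg1-deficient library 1. Ccnb1 had 0.71 and 0.82 FPKM in the Brg1-sufficient and 2.71 and 0.74 in the Brg1-deficient libraries. The 3 genes of the CDK1 and cyclin B kinase thus shared 1 high library, and in the other Brg1-deficient library they lay close to the controls.

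Other mitotic genes varied between libraries in both groups. Top2a, a topoisomerase that untangles chromosomes, had 13.2 and 8.65 FPKM in the Brg1-sufficient and 15.3 and 9.38 in the Brg1-deficient libraries. Birc5, which encodes survivin of the chromosomal passenger complex, had 7.64 and 2.54 FPKM in the Brg1-sufficient and 8.19 and 2.57 in the Brg1-deficient libraries. Both genes differed far more between the libraries of a group than between the groups, whose log2 fold changes were 0.15 for Top2a and 0.05 for Birc5. Cdc20, the activator of the anaphase-promoting complex, had 7.24 and 8.18 FPKM in the Brg1-sufficient and 8.69 and 6.76 in the Brg1-deficient libraries, without a gap between the groups. The cyclin Ccna2, the checkpoint kinases Bub1 and Bub1b, the Aurora kinases Aurka and Aurkb, the ubiquitin-conjugating enzyme Ube2c, the kinesins Cenpe and Kif11 and the spindle factor Tpx2 stayed between 0.57 and 3.62 FPKM. Of these, Cenpe alone had groups without overlap. Plk1, the Polo-like kinase, and the centromere protein gene Cenpf reached at most 1.12 and 1.22 FPKM.

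Across the 18 G2 and mitosis genes the summed FPKM was 54.9 and 39.7 in the Brg1-sufficient libraries and 79.4 and 40.7 in the Brg1-deficient libraries. The sum was highest in Brg1-deficient library 1, and Brg1-deficient library 2 was almost level with the lower control. Brg1-deficient library 1 held the highest of the 4 values for 12 of the 16 tested genes and Brg1-sufficient library 1 for the other 4. Over all genes tested, 23.8% had their highest value in Brg1-deficient library 1. In both groups at once, library 1 exceeded library 2 for 10 of the 16 genes (62.5%) and for 8 of the 13 S phase genes (61.5%), where this held for 23.5% of all genes tested. The opposite order in both groups held for 0 of the 16 and 1 of the 13, Mcm7, and for 25.5% of all genes.

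**Figure D4:**
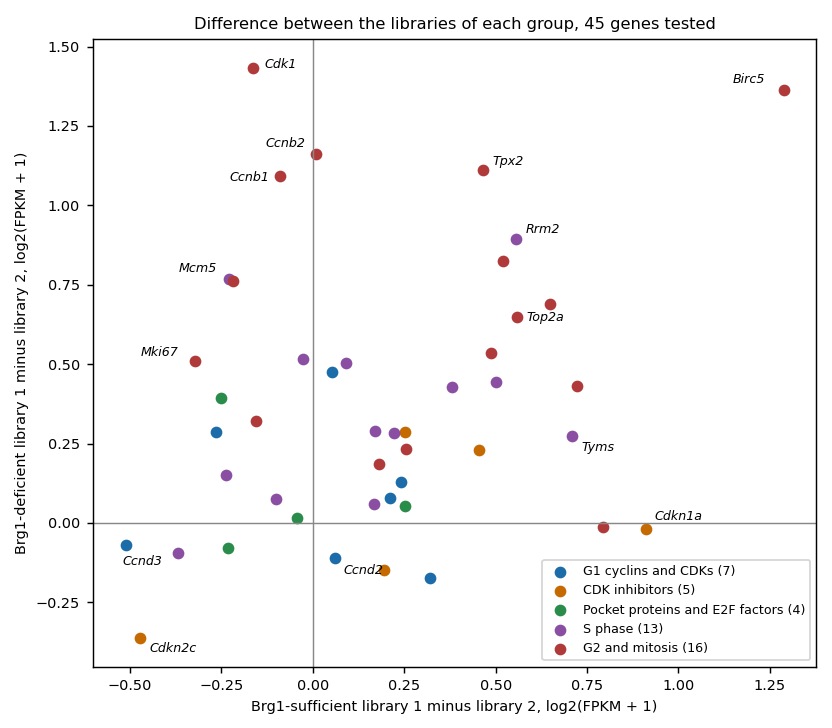
Difference between library 1 and library 2, in log2(FPKM + 1), within the Brg1-sufficient group on the horizontal and within the Brg1-deficient group on the vertical axis, for the 45 genes tested. Most G2 and mitosis genes lie above 0 on the vertical axis, up to 1.43 for Cdk1, and Birc5 is far from 0 on both axes.

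The median difference between library 1 and library 2 over the 16 genes was 0.36 in the Brg1-sufficient and 0.67 in the Brg1-deficient group on the log2(FPKM + 1) scale. Over all genes tested it was -0.02 and 0.00, but the libraries have nearly the same distribution of FPKM, so a shift of a whole library would not show in that median. Macrophage and dendritic cell markers ran the other way, with library 2 above library 1 in both groups for all 6 of the 8 markers that were tested. Their summed FPKM was 148 and 331 in the Brg1-sufficient and 108 and 294 in the Brg1-deficient libraries, and none of the 8 was at 0 in every library. Lyz2, the most abundant of them, had 84.1 and 203 FPKM in the Brg1-sufficient and 64.4 and 192 in the Brg1-deficient libraries. The part of these cells in the values of the mitotic genes was not tested.

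The values of the whole cell preparation bear on all of these genes. Smarca4 had 17.1 and 16.7 FPKM in the libraries labelled Brg1-sufficient and 9.98 and 9.03 in those labelled Brg1-deficient, or 56.2% of the control mean (limma log2 fold change -0.77, Benjamini-Hochberg adjusted p = 0.153). All 12 ILC3 markers were tested and none was at 0. They summed, mostly from Il22, to 10882 and 13005 FPKM in the Brg1-sufficient and 23992 and 12964 in the Brg1-deficient libraries. Markers of other cells were read in the same way. The 10 markers of ILC1s and natural killer cells summed to 295 and 357 against 489 and 278 FPKM. Gzma led the sum in the Brg1-deficient libraries and ran against the rest of the list, at 50.8 and 103 against 397 and 218. Nkg7 led it in Brg1-sufficient library 1, at 122 and 35.1 against 4.33 and 5.1. Gzmb led it in Brg1-sufficient library 2, at 51.5 and 149 against 62.0 and 25.7. Of the 9 tested, 8 had a negative log2 fold change, 5 were lower and 1, Gzma, higher at an unadjusted p under 0.05, and the median log2 fold change was -1.23. Tbx21 had 4.21 and 6.04 against 1.28 and 0.9 FPKM, and Ncr1, which encodes NKp46 and also marks a subset of ILC3s, fell by 2.36 on the log2 scale (limma adjusted p = 0.0330), and it was the one marker of all 9 lists to pass. The 8 ILC2 markers summed to 314 and 199 FPKM in the Brg1-sufficient and 115 and 140 in the Brg1-deficient libraries, mostly from Gata3. Of the 7 tested, 6 had a negative log2 fold change, and Hpgds ran against them at 2.31 and 6.61 against 20.6 and 19.9 FPKM. The 9 epithelial markers summed to 5.99 and 7.49 against 20.6 and 18.2 FPKM, of which Krt18 made up most in the Brg1-deficient libraries, at 15.7 and 12.9. The epithelial surface markers ran the other way, with Epcam at 1.5 and 1.79 against 0.68 and 0.54 FPKM and Cdh1 at 0.56 and 0.54 against 0.2 and 0.49. The 7 T and B cell markers summed to 55.0 and 41.0 against 28.1 and 24.4, and the 6 erythroid markers to 201 and 267 against 88.3 and 170. Neutrophil and mast cell markers stayed at 8.66 to 13.5 with Elane at 0 throughout, and the 6 stromal and endothelial markers, mostly Pecam1, at 64.4 to 90.0. Their part in the cell cycle values was not tested. Genes with an FPKM above 0 numbered 30046 to 36929 per library.

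The rest of the pathway was read from 4 further lists of 131 cell cycle genes, none of them members of the 51. Of these, 118 were tested, 0 passed an adjusted p of 0.05 by limma, and 4 were lower (3.39%) and 6 higher (5.08%) at an unadjusted p under 0.05. Both shares lay under those of all genes. The replication list had 1 lower and 1 higher of 32 tested, the G2 and mitosis list 0 and 3 of 39, the list of E2F, DREAM and upstream regulators 3 and 1 of 27, and the list of quiescence and antiproliferative genes 0 and 1 of 20. The medians of the log2 fold changes were 0.06, 0.18, -0.10 and 0.12 in that order.

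Upstream of the cyclins, Myc, the growth factor-responsive activator of many cell cycle genes, had 10.5 and 8.97 FPKM in the control libraries and 5.04 and 4.83 in the Brg1-deficient libraries. Both Brg1-deficient libraries were well below both controls, at a ratio of the means of 0.507 and a log2 fold change of -0.85 ± 0.19 (SE, limma adjusted p = 0.171). Mxd1, which competes with MYC for MAX and represses its targets, had 101 and 114 FPKM in the Brg1-sufficient and 69.3 and 61.9 in the Brg1-deficient libraries. Myc and its antagonist were therefore both low in the same libraries, and the ratio of Myc to Mxd1 FPKM stayed between 0.0727 and 0.104. Lin54, the DNA-binding subunit of DREAM that reads CHR elements, had 5.2 and 5.72 FPKM in the Brg1-sufficient and 3.27 and 2.98 in the Brg1-deficient libraries (log2 fold change -0.65 ± 0.21, SE), and it was named after its values were seen. Tfdp1, the DP partner that E2Fs need to bind DNA, had 6.73 and 5.86 FPKM in the Brg1-sufficient and 10.3 and 9.72 in the Brg1-deficient libraries (log2 fold change 0.60 ± 0.18, SE).

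Of the replication genes, Hells had the lowest p of the list. Hells encodes a SNF2 family remodeler that supports DNA methylation, and had 26.0 and 29.1 FPKM in the Brg1-sufficient and 13.1 and 16.3 in the Brg1-deficient libraries. Both Brg1-deficient libraries were well below the controls, with a log2 fold change of -0.87 ± 0.18 (SE, limma adjusted p = 0.148). Gins2, a subunit of the replicative helicase complex, ran the other way at 3.11 and 3.28 against 5.1 and 5.2 FPKM (log2 fold change 0.55). Tk1, the thymidine kinase of S phase, had 9.81 and 6.46 against 5.49 and 3.1 FPKM, with a log2 fold change of -0.80 ± 0.32 (SE) and a limma adjusted p of 0.401. Genes of the list thus lay on both sides of 0.

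Of the mitotic genes outside the 51, Ect2, which is required for cytokinesis, had 1.97 and 3.65 FPKM in the Brg1-sufficient and 8.27 and 6.93 in the Brg1-deficient libraries (log2 fold change 1.21 ± 0.29, SE, limma adjusted p = 0.187). Unlike for Cdk1, both Brg1-deficient libraries were high. Prc1, which bundles microtubules of the central spindle, had 16.1 and 20.0 against 27.4 and 23.5 FPKM, and Cks1b, a small CDK-binding protein, had 10.8 and 9.83 against 18.3 and 13.5 FPKM. Their log2 fold changes were 0.48 and 0.57.

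Of the quiescence and antiproliferative genes, Ccng1, a p53 target that encodes cyclin G1, had 30.2 and 42.3 FPKM in the Brg1-sufficient and 54.2 and 57.2 in the Brg1-deficient libraries (log2 fold change 0.63 ± 0.20, SE, limma adjusted p = 0.304). It was high in both Brg1-deficient libraries, whereas Cdkn1a, another target of p53, was not. Gadd45g, a stress-induced growth arrest gene, had 219 and 217 against 242 and 325 FPKM, and Foxo1, a transcription factor that favours quiescence in lymphocytes, had 6.67 and 6.18 against 4.92 and 4.59 FPKM. Neither reached an unadjusted p of 0.05, and their limma adjusted p was 0.494 and 0.514.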

How the data were processed

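RNA was sequenced single end from sorted small intestinal ILC3s in 4 libraries, 2 per group. Per the submitters' processing notes and the study's methods, reads were mapped to GRCm38.p5 with STAR 2.5 and quantified with RSEM 1.2 on a GENCODE annotation, and the authors deposited FPKM per gene. Counts and depth are not analysed here, so depth is unknown and no counting interval is given. Sorted FPKM values agreed within 1% between the 4 libraries at 99.3% of 13693 ranks, so the values appear to have been equalised in distribution. The design allowed for a count test, but FPKM need a test on a log scale. The 14739 genes whose mean exceeded 1 FPKM in at least 1 group were fitted as log2(FPKM + 1) with limma 3.58.1 in R 4.3.3 (moderated, with a mean-variance trend, without covariates) and adjusted by the Benjamini-Hochberg method. Fold changes on this scale understate the change of low genes. An exact permutation test of 2 against 2 libraries cannot go below p = 0.333 and was not used. The fit was tested on simulated data. Alternatives were another pseudocount (0.1), no filter, a filter at 5 FPKM, no trend, the replicate number as a block, each library left out and the criteria of the study's gene lists.

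Values in every library are given for genes with an unadjusted p under 0.05, for the 3 most abundant and the 2 with the largest fold change of each role, and for Mki67, Ccnd2, Ccnd3 and Cdkn1b, and of the other cell cycle lists for the 3 with the lowest p. The genes and lists were chosen with earlier results of these data known. Genes were placed with GENCODE on GRCm38. Of the 51 genes, 22 overlap an annotated gene on the opposite strand and 5 (Ccnd3, Pcna, Tyms, Ccnb1 and Ccnb2) have a pseudogene of their name, and their values are uncertain to that extent, as strand use in counting is not stated in the sources used here. How Smarca4 was deleted is not reported here.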

Additional observations from a re-analysis of the deposited data

How the results depend on the processing

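No gene of the 51 or of the other cell cycle lists passed an adjusted p of 0.05 in any of the 9 alternative fits. By the study's list criteria 2 genes were higher. At an unadjusted p under 0.05, Ccnd2 and Rb1 were past the threshold in all 9 fits and Rbl2 was not without the trend or in 3 of the 4 fits that left out a library. Leaving out each library in turn gave 0 to 1 of the 45 genes lower (Cdkn1a without Brg1-sufficient library 2, where 1331 of all 14739 genes were lower) and 2 to 5 higher, while the share of all genes that were higher ranged from 3.53% to 10.1%. There were 5 without Brg1-sufficient library 2 (Ccnd2, Rb1, Mcm6, Rbl2 and Ccnd3), where 10.1% of all genes were higher, and 5 without Brg1-deficient library 2 (Ccnd2, Cdk1, Rb1, Ccnb2 and Ccnb1), where 3.53% were. For the other cell cycle lists it gave 2 to 7 lower and 2 to 7 higher. Without the trend 3 of these were higher. The cause was not tested. The sign of the log2 fold change differed for 10, 11, 8 and 13 of the 45 genes when Brg1-sufficient library 1, Brg1-sufficient library 2, Brg1-deficient library 1 or Brg1-deficient library 2 was left out, and for 0 genes in the other fits. The median over the 45 genes ranged from -0.09 to 0.25 when a library was left out. A lone library left in a group was assumed to vary like the other group.

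The labels give both groups replicate numbers 1 and 2. Over the genes tested, libraries of one number departed from their groups with a correlation of -0.00039. A correlation over all genes cannot show whether libraries of one number shared recipients. Some sets did share an order in both groups. Library 1 exceeded library 2 for 10 of the 16 G2 and mitosis genes tested (23.5% of all genes). Library 2 exceeded library 1 for all 6 macrophage and dendritic cell markers tested (25.5% of all genes). As pairing is not stated, the main fit used no block. With the replicate number as a block, 4 of the 45 genes tested were higher at an unadjusted p under 0.05, where 6.71% of all genes were (Ccnd2, Cdk1, Rb1 and Rbl2; limma adjusted p 0.262 for Cdk1) and 0 lower, 7 genes of the other lists were lower and 8 higher, and over all genes the block left 248 lower and 150 higher past an adjusted p of 0.05, against 33 and 12 without it. With 2 libraries per group and no depth, differences as small as those of most genes here could not be resolved.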
